A study of Homo sapiens with 15 samples.

Results

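The genes described here encode the signalling kinases, chromatin adaptors, nucleases and recombination proteins that act on broken DNA. They comprise 39 genes given by symbol, of the 60670 genes in the count table. They were chosen for their known roles, with earlier results of these data known. Each of the 39 symbols matched 1 Ensembl identifier, and all 39 passed the filter on low counts, which left 18563 genes tested. The counts behind them ranged from 22 (FANCB, in a GNF-7 library at 24 h) to 7563 (H2AX, in a cycling library). In GENCODE release 29 (GRCh38), H2AX lies at chr11:119093854-119095467, BARD1 at chr2:214725646-214809711 and EXO1 at chr1:241847967-241895148, and none of their exons overlaps another gene's.

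Stranded libraries of mRNA were made from HT-1080, an established human fibrosarcoma cell line, in 5 groups of 3 biological replicates. Cycling cells received the vehicle DMSO and carry the label 6 h. The other groups were made senescent by 6 days of expression of a dominant negative TRF2 mutant, TRF2 being a protein that caps telomeres, and then received DMSO for 6 h or 24 h, or 1 uM of the kinase inhibitor GNF-7 for 6 h or 24 h. The controls of both GNF-7 comparisons are therefore senescent cells that carry the mutant too, all groups come from 1 cell line, and no cycling group with GNF-7 was analysed here. Whether the replicates were separate cultures beyond the words biological replicate is not stated, so p-values measure the spread between these libraries.

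A double-strand break is first bound by the MRE11, RAD50 and NBN complex, which activates the kinase ATM, whereas single-stranded DNA coated with protein activates the kinase ATR with its partner ATRIP and its activator TOPBP1. Ends that are cut back to single strands are then copied from a sister chromatid by homologous recombination, with BRCA1, PALB2 and BRCA2 preparing the strand for exchange. Fanconi anaemia proteins hand crosslinked DNA to the same pathway, and many of these genes are transcribed mainly in cells that replicate their DNA. Uncapped telomeres, as made by loss of TRF2 function, are known to be read by the cell as DNA ends and to activate ATM.

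Library totals ranged from 25991007 to 32323393 counts. TERF2, the gene of TRF2, was at 55.7 to 62.4 CPM (counts scaled to a common library size and composition) in cycling cells. In senescent cells at 6 h it was at 278 to 293 CPM in vehicle and 212 to 227 CPM with GNF-7. At 24 h it was at 212 to 226 CPM in vehicle and 128 to 138 CPM with GNF-7. TERF2 was thus lower with GNF-7 than in vehicle at both times, without overlap, and the part of this in the results below was not tested. Reads of the mutant and of the cell's own TERF2 are counted together here. Of 7 mesenchymal markers 6 were present in every group, among them VIM at 3474 to 4460 CPM as group means, and THY1 was listed at 0 in every library. The summed CPM of the 7 was 117.8% of the cycling level in vehicle at 24 h and 68.6% with GNF-7 at 24 h. SPARC was at 3247 and 623 CPM in these groups. Epithelial, endothelial and blood markers together reached at most 2.54, 2.06 and 0.353 CPM in any library. The share of counts in mitochondrial genes was 3.75 to 5.01% in cycling cells and 22.6 to 24.1% in GNF-7 cells at 24 h, with 11.2 to 18.7% in the other senescent groups. Its part in the results below was not tested. With these genes left out of the fit, the only call lost among the named members was that of ATR in senescence. Calls were also gained, for TP53BP1 with GNF-7 at 24 h and for H2AX in vehicle over time. Members with a lower GNF-7 effect at 24 h than at 6 h then numbered 23 in place of 20.

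The sequence before the start of the members was searched for 3 short motifs. The 250 bases before 1 RefSeq start per gene (GRCh38.p14) were available for 37 of the 39, with none for NBN and FANCI. For 10 of the 37 this window lies wholly inside the gene as GENCODE release 29 draws it, downstream of its outermost start (ATM, TOPBP1, CHEK1, CHEK2, MDC1, RAD50, RBBP8, RAD51B, RAD51D and FANCC). Other windows lie partly inside, most of all that of EXO1, with 237 of its 250 bases. Whether the RefSeq start is the one used in these cells was not tested for any member. The 3 motifs were searched on both strands, and none of the matches in members overlapped another. A CCAAT box (CCAAT, or ATTGG on the other strand) was present in 19 of 37 members (51.4%), 34.9% of the tested genes with a promoter in the table and 33.0% of all 27305 promoters. A CHR-type motif (TTTGAA or TTCAAA) was present in 7 of 37 (18.9%), against 8.69% of the tested genes and 13.6% of all promoters. The E2F-type motif (TTTCCCGC or TTTGGCGC, or their complements) was in 1 of 37, or 2.7%, against 3.01% of the tested genes and 1.96% of all promoters. Only these exact letters were searched, and E2F sites spelled otherwise are not in these counts. Of the 1000 tested genes with a promoter that fell at least 2-fold in senescence, 42.8% held a CCAAT box, 13.7% the CHR-type motif and 6.20% the E2F-type motif. Of the 26 of these members that fell at least 2-fold in senescence, 13 held a CCAAT box (50%), and of the 11 others 6 did (54.5%), while the CHR-type motif was in 6 of the 26 (23.1%) and 1 of the 11 (9.09%). The following 4 windows are printed as examples. H2AX, BLM and BRIP1 hold 3 or 4 CCAAT boxes and fell with GNF-7 at 24 h. FANCC, which rose with GNF-7, holds the single match to the E2F-type letters searched. Capitals mark the matches to the 3 motifs. CHEK2, with 3 CCAAT boxes, and XRCC3, with 5, are not printed. A match is a description of letters, not a site of binding.
H2AX (chr11:119095466-119095715, minus strand): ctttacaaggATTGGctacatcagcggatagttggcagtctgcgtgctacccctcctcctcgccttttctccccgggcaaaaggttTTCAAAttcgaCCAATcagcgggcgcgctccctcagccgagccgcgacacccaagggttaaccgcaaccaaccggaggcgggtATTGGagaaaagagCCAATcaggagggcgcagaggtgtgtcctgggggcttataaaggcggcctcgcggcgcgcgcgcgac
BLM (chr15:90717096-90717345, plus strand): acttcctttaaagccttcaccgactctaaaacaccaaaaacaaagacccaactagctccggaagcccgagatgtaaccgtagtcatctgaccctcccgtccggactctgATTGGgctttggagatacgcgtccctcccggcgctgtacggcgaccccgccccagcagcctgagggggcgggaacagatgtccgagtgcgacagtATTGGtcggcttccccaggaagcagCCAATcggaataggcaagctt
BRIP1 (chr17:61863529-61863778, minus strand): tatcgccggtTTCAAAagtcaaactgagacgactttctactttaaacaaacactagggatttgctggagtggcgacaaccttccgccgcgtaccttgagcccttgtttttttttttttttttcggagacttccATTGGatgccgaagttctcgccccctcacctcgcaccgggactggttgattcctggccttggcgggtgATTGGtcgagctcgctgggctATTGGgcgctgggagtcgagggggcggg
FANCC (chr9:95317710-95317959, minus strand): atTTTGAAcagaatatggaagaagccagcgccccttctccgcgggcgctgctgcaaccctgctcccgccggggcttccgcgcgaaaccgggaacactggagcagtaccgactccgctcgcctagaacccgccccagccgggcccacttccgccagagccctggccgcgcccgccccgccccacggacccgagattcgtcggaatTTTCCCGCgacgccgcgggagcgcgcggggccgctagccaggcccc
In H2AX the 4 CCAAT boxes began 240, 153, 81 and 67 bases before the RefSeq start, and in XRCC3 the 5 began 216, 171, 108, 66 and 33 bases before it. FANCC had its E2F-type motif 46 bases before the RefSeq start used, and its whole window lies 108837 bases inside the gene from the outermost GENCODE start.

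The first comparison asked how these genes differed between senescent and cycling cells in vehicle. Most of them fell: 34 of 39 were called lower (87.2%) and 1 higher, where 70.0% of all genes tested were called, 34.4% lower and 35.6% higher (edgeR quasi-likelihood test, Benjamini-Hochberg adjusted p under 0.05). Of the 39, 28 fell by at least 2-fold, as 7.56% of all genes did. The median log2 fold change was -1.49, against 0.06 over all genes. With library totals as the scale these medians were -1.36 and 0.19. ATM itself was not called, and TP53BP1 rose. Bulk RNA cannot tell apart fewer cells that transcribe a gene and less of its RNA in each cell, and the 10 cycling markers (MKI67, TOP2A and others) all fell as well, from a summed 3050 to 3232 CPM in cycling libraries to 735 to 772 CPM in senescent ones. Their part in these falls was not tested.

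Among the damage kinases and their activators, 5 of 6 fell, with ATM not called and the smallest called fall in ATR. ATM was at 87.1, 82.2 and 84.7 CPM in the cycling libraries and at 91.3, 85.3 and 91.0 CPM in the senescent ones. The groups overlapped and ATM was not called, but it was called higher with library totals as the scale (0.21), with only genes of at least 5 CPM (0.23) and in a fit of these groups alone (0.13). ATR was at 83.2, 89.4 and 87.5 CPM in cycling and at 80.9, 76.8 and 83.0 CPM in senescent libraries. Its small fall of -0.11 (SE 0.047, edgeR adjusted p 0.0291) turned to 0.02 and 0.04 with the first of those scales and the filter at 5 CPM. The ATR call was also lost on leaving out cycling library 2 (-0.09) or 3 (-0.11) or senescent library 2 (-0.08), with mitochondrial genes left out (-0.10), with no filter on low counts (-0.10) and in a fit of these groups alone (-0.05). The exons of ATR overlap a gene on the other strand over 16.4% of their length, and whether counting used strand is not stated. CHEK1, the effector kinase of ATR, fell from 59.6 ± 1.40 to 17.5 ± 0.927 CPM (SD, n = 3), a log2 fold change of -1.77. CHEK2, the effector of ATM, fell by 1.00 on the log2 scale. TOPBP1 fell by 1.46, from 184 to 67.1 CPM, and ATRIP by 1.06, with 27.9% of the exon length of ATRIP shared with TREX1 on its own strand.

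Of the 4 genes that mark and read chromatin at breaks, 3 fell and 1 rose. H2AX, the histone variant phosphorylated beside a break, was at 233, 231 and 247 CPM in the cycling libraries and at 71.9, 79.4 and 69.4 CPM in the senescent ones. Every senescent library lay below every cycling one, and H2AX fell by 1.69 on the log2 scale (SE 0.046, edgeR adjusted p 2.33e-40). MDC1, which binds the phosphorylated form, fell by 1.05. TP53BP1, which protects ends from resection, was at 68.4, 72 and 74.8 CPM in cycling and at 88.5, 93.2 and 89.2 CPM in senescent libraries. These groups did not overlap, and its rise of 0.33 (SE 0.045, edgeR adjusted p 2.15e-09) contrasted with a fall of 1.32 for RIF1, which acts with TP53BP1 at ends. TP53BP1 shares 28.7% of its exon length with TUBGCP4 on the other strand.

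The genes that sense ends and cut them back held the largest falls of all 39. EXO1, a nuclease of long-range resection, was at 57.2, 56.7 and 57.0 CPM in cycling and at 10.1, 8.90 and 7.63 CPM in senescent libraries. EXO1 thus fell by 2.68 on the log2 scale (SE 0.087, edgeR adjusted p 1.94e-36), with no overlap. BLM, a helicase that works with such nucleases, was at 30.7, 33.8 and 30.6 CPM and then at 5.20, 4.93 and 5.34 CPM (-2.62). RBBP8, whose product CtIP starts resection, fell by 1.49. In the complex that senses the end, NBN fell by 1.07 and MRE11 by 1.00. RAD50 was not called, at 6.5 ± 0.321 CPM in cycling and 5.71 ± 0.555 CPM in senescent cells. Its value is uncertain, because 79.7% of its exon length is shared with AC116366.3 on the same strand.

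In the BRCA group all 5 members fell. BARD1, the partner of BRCA1 in a ubiquitin ligase, was at 26, 26.1 and 27.6 CPM in cycling and at 4.77, 5.02 and 5.13 CPM in senescent libraries (-2.42, SE 0.125, edgeR adjusted p 4.28e-26). BRCA1 was at 60.7, 65.0 and 62.4 CPM and then at 11.2, 11.3 and 14.5 CPM (-2.35). The partners therefore stood at 18.7% and 19.7% of their cycling means. BRIP1, a helicase that binds BRCA1, fell by 2.17 and BRCA2, which prepares single strands for exchange, by 1.95. PALB2, the bridge between BRCA1 and BRCA2, fell less, by 0.56, and kept 68.0% of its cycling mean.

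Of the 7 genes that help strand exchange, 6 fell. XRCC2 fell by 2.39, RAD54L, a DNA translocase, by 2.37 and RAD51AP1, which stimulates strand pairing, by 2.34. XRCC3 fell by 1.82, but 76.7% of its exon length overlaps KLC1 on the other strand, and RAD54L overlaps LRRC41 there over 25.1%. Among the paralogs that share a complex with XRCC2, RAD51C fell by 0.92 and RAD51D by 0.28. RAD51D lost its call with library totals (-0.15) and with the filter at 5 CPM (-0.13). RAD51B, the remaining partner, was at 3.62 ± 0.870 CPM in cycling and 3.41 ± 0.244 CPM in senescent cells and was not called.

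The Fanconi core complex is a ubiquitin ligase, and 7 of its 8 listed members fell. The falls were 2.23 for FANCB, 2.14 for FANCA, 2.04 for FANCG, 1.57 for FANCC, 1.46 for FANCE, 1.40 for FANCL, the catalytic subunit, and 1.35 for FANCM, which anchors the complex on DNA. FANCA overlaps ZNF276 on the other strand over 23.6% of its exon length and FANCL 2 genes over 19.7%. FANCF, an adaptor subunit, was not called, at 12.4 ± 0.490 CPM in cycling and 11.95 ± 0.705 CPM in senescent cells. FANCD2, which the complex ubiquitinates, was at 51.9, 53.3 and 52.8 CPM in cycling and at 8.74, 10.3 and 11.2 CPM in senescent libraries (-2.38, SE 0.083, edgeR adjusted p 7.90e-35). Its partner FANCI fell by 2.09 and UBE2T, the enzyme that brings ubiquitin to the complex, by 2.12, so all 3 genes of this step stood at 19.1 to 23.5% of their cycling means.

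**Figure D1:**
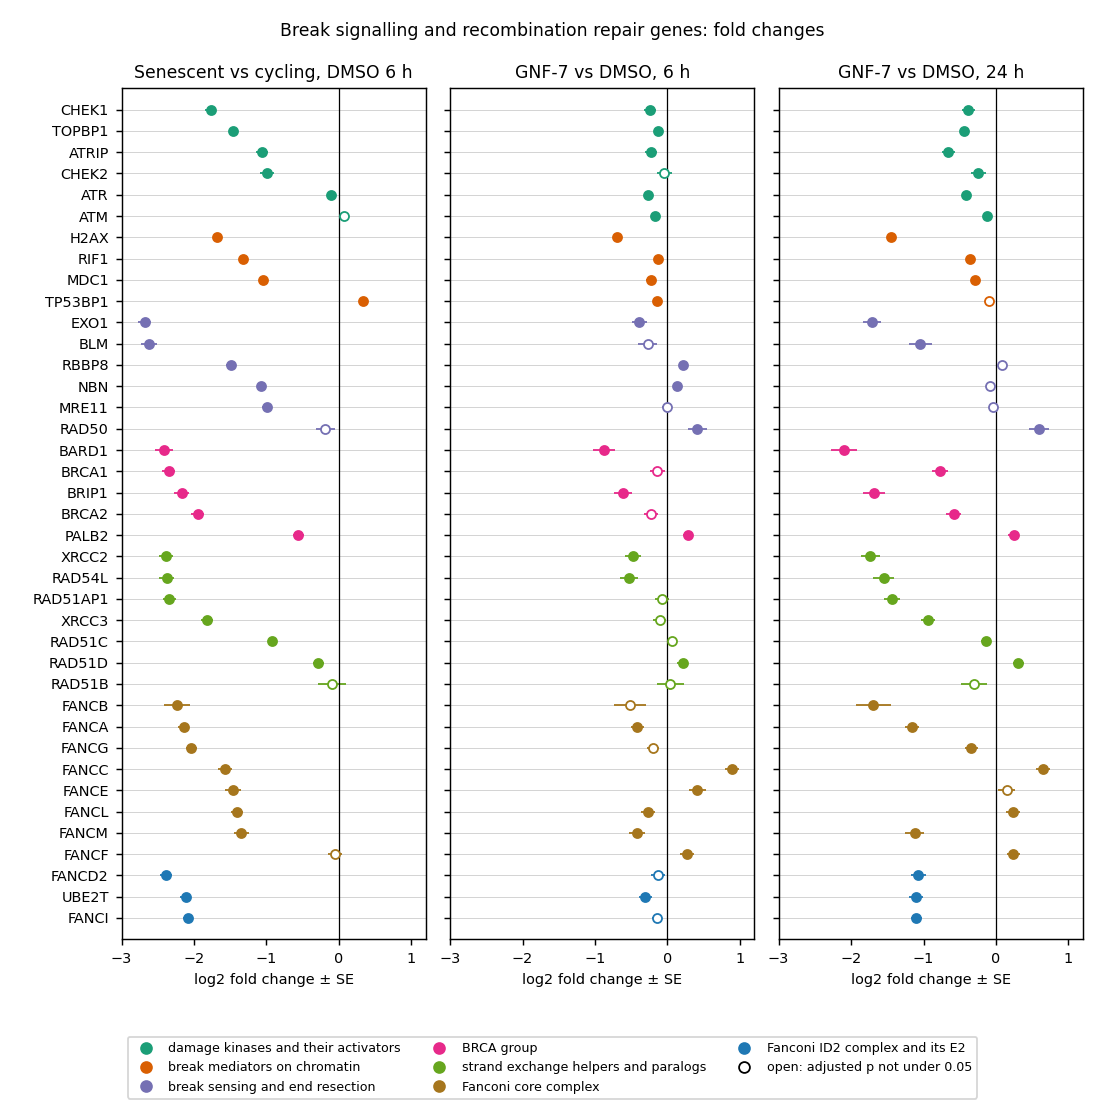
Log2 fold change (horizontal axis) of each of the 39 genes, grouped and coloured by role, in 3 comparisons, with SE bars and open points where the gene was not called. In senescence most points lie left of 0, with a median of -1.49, while after GNF-7 points lie on both sides, with medians of -0.14 at 6 h and -0.42 at 24 h.

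GNF-7 for 6 h in senescent cells gave smaller and mixed differences. Of the 39 genes 18 were called lower and 8 higher, where 39.3% of all genes tested were called, 21.4% lower and 17.9% higher. By at least 2-fold 0 of the 39 changed (edgeR quasi-likelihood test), against 0.566% of all genes lower and 4.16% higher. The median log2 fold change was -0.14, against 0.01 over all genes. BARD1, H2AX and BRIP1 fell most, and FANCC, a core complex subunit, rose most. All 4 chromatin genes and 5 of the 6 kinase genes were called lower, as were 2 of 5 in the BRCA group. Most of these falls were small, with a median of -0.19 for the chromatin genes and -0.20 for the kinase genes. Of the 6 end resection genes 3 were called higher, namely RAD50, RBBP8 and NBN. The count of 18 lower calls was 13 with the filter at 5 CPM, and 15 to 20 on leaving out each library in turn. The count of 8 higher calls fell to 4 without vehicle library 1 and to 5 without GNF-7 library 1. Of the cycling markers 9 of 10 were called lower and 1 higher, with a summed 629 to 643 CPM after GNF-7, and their part in these differences was not tested.

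BARD1 went from 4.77, 5.02 and 5.13 CPM in vehicle to 3.37, 2.43 and 2.32 CPM after GNF-7 for 6 h (-0.87, SE 0.153, edgeR adjusted p 3.26e-06). H2AX went from 71.9, 79.4 and 69.4 CPM to 42.4, 46.0 and 47.8 CPM (-0.70, SE 0.050, edgeR adjusted p 9.46e-19). The values of BRIP1 were 9.87, 7.20 and 8.12 CPM in vehicle and 6.03, 5.79 and 4.68 CPM with GNF-7 (-0.61). In each of these genes all GNF-7 libraries lay below all vehicle libraries. Other falls were RAD54L at -0.53, XRCC2 at -0.48, FANCM at -0.42 and FANCA at -0.41.

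FANCC was at 7.22, 7.39 and 8.29 CPM in vehicle and at 15.3, 14.6 and 12.5 CPM after GNF-7 for 6 h (0.89, SE 0.099, edgeR adjusted p 2.32e-11). The lowest treated library thus lay above the highest vehicle library. RAD50 was at 5.83, 6.19 and 5.10 CPM in vehicle and at 8.30, 6.68 and 7.83 CPM with GNF-7. FANCE was at 5.86, 7.17 and 8.15 CPM and then at 9.37, 8.91 and 9.86 CPM. Both were called higher, and neither gene's libraries overlapped. FANCB and BRCA2 were not called, but were called lower with a replicate block (-0.52, edgeR adjusted p 0.0462, and -0.23, edgeR adjusted p 0.0487). BRCA1 and FANCD2, which had fallen far in senescence, overlapped between vehicle and GNF-7 at 6 h and were not called. BRCA1 was at 10.1, 12.3 and 11.1 CPM and FANCD2 at 9.04, 9.63 and 8.91 CPM with GNF-7. ATM and ATR were called lower at 6 h, with GNF-7 libraries at 74.6, 82.9 and 80.0 CPM for ATM and 64.1, 71.2 and 64.8 CPM for ATR.

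GNF-7 for 24 h lowered most of the genes again. Of the 39, 27 were called lower and 6 higher, where 58.9% of all genes tested were called, 29.7% lower and 29.3% higher. By at least 2-fold 14 fell and 0 rose (edgeR quasi-likelihood test), against 3.92% and 10.3% of all genes. The median log2 fold change was -0.42, against 0.04 over all genes. By role the lowest medians were those of the FANCD2 step (-1.10), strand exchange (-0.94) and the BRCA group (-0.77), while FANCC, RAD50 and RAD51D rose. All 10 cycling markers fell too, from a summed 680 to 691 CPM in vehicle to 340 to 362 CPM with GNF-7, and their part in the result was not tested.

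BARD1 was at 4.37, 4.23 and 5.34 CPM in vehicle at 24 h and at 1.54, 0.877 and 0.830 CPM with GNF-7 (-2.10, SE 0.183, edgeR adjusted p 1.30e-15). XRCC2 was at 8.42, 6.98 and 6.73 CPM and then at 2.04, 2.31 and 2.32 CPM (-1.73, SE 0.131, edgeR adjusted p 3.30e-18). EXO1 was at 8.42, 8.18 and 8.82 CPM and then at 2.67, 2.79 and 2.29 CPM (-1.71). None of these 3 genes overlapped between the groups. FANCB (-1.69), BRIP1 (-1.68), RAD54L (-1.55) and RAD51AP1 (-1.44) followed.

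H2AX fell from 68.6, 67.2 and 66.6 CPM to 25.8, 24.1 and 24.4 CPM (-1.45, SE 0.054, edgeR adjusted p 4.40e-33), without overlap. FANCD2 was at 9.19, 10.9 and 9.71 CPM in vehicle and at 4.88, 4.58 and 4.71 CPM with GNF-7 (-1.07). FANCI and UBE2T fell by a similar amount, by 1.10 and 1.11. In the core complex FANCA fell by 1.16 and FANCM by 1.12, and FANCG by 0.34. BRCA1 was at 11.7, 13.4 and 13.5 CPM and then at 8.55, 7.96 and 6.08 CPM (-0.77), a smaller fall than that of its partner BARD1, although the difference between the genes was not tested. BLM fell by 1.04, XRCC3 by 0.94 and BRCA2 by 0.58.

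All 6 kinase genes were called lower at 24 h, with a median of -0.40. ATR was at 69.5, 72.9 and 68.6 CPM in vehicle and at 52.4, 53.2 and 52.3 CPM with GNF-7 (-0.42, SE 0.049, edgeR adjusted p 3.50e-11), without overlap. Its partner ATRIP fell by 0.66, TOPBP1 by 0.44, CHEK1 by 0.38, RIF1 by 0.35 and MDC1 by 0.28. ATM was at 95.5, 91.4 and 89.6 CPM in vehicle and at 91.0, 81.5 and 80.4 CPM with GNF-7. These groups overlapped, and the small fall of ATM (-0.13, edgeR adjusted p 0.0149) lost its call on leaving out library 1 of vehicle (-0.11), library 2 of GNF-7 (-0.11) or library 3 of GNF-7 (-0.10). TP53BP1 was not called (84.9, 88.6 and 83.8 CPM, then 81.6, 76.9 and 81.9 CPM), but was called lower with a replicate block (-0.10, edgeR adjusted p 0.0478) and in 15 of the other fits, at -0.12 to -0.10.

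Some small falls depended on single libraries. CHEK2 (-0.24) overlapped between the groups and lost its call without library 1 of vehicle (-0.19), library 1 of GNF-7 (-0.21) or library 3 of GNF-7 (-0.18) at 24 h. RAD51C (-0.14) overlapped too and lost its call without the second 6 h GNF-7 library (-0.14), library 1 of vehicle (-0.09), library 1 of GNF-7 (-0.10) or library 2 of GNF-7 (-0.16). With library totals as the scale, CHEK2 (-0.21), RAD51C (-0.11) and ATM (-0.10) were not called, and with the filter at 5 CPM they were at -0.14, -0.04 and -0.03 and not called.

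In all, 6 genes rose with GNF-7 at 24 h. FANCC was at 7.78, 8.68 and 7.39 CPM in vehicle and at 12.5, 12.3 and 12.6 CPM with GNF-7 (0.65, SE 0.1, edgeR adjusted p 9.45e-08). RAD50 was at 4.72, 4.76 and 4.14 CPM and then at 7.05, 7.34 and 6.21 CPM (0.59, SE 0.135), with the shared exons named above. RAD51D was at 19.0, 17.5 and 18.3 CPM and then at 22.9, 22.5 and 22.5 CPM (0.31, SE 0.074). In each, the libraries did not overlap. PALB2 (0.25) lost its call without library 1 of GNF-7 (0.17). FANCF (0.24) lost it without library 2 of vehicle (0.19) or library 1 of GNF-7 (0.17), and with no filter on low counts (0.22). FANCL (0.24) lost it without library 2 (0.22) or 3 (0.21) of vehicle or library 2 (0.22) or 3 (0.18) of GNF-7, and with no filter (0.21). MRE11, NBN, RBBP8, FANCE and RAD51B were not called at 24 h.

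**Figure D2:**
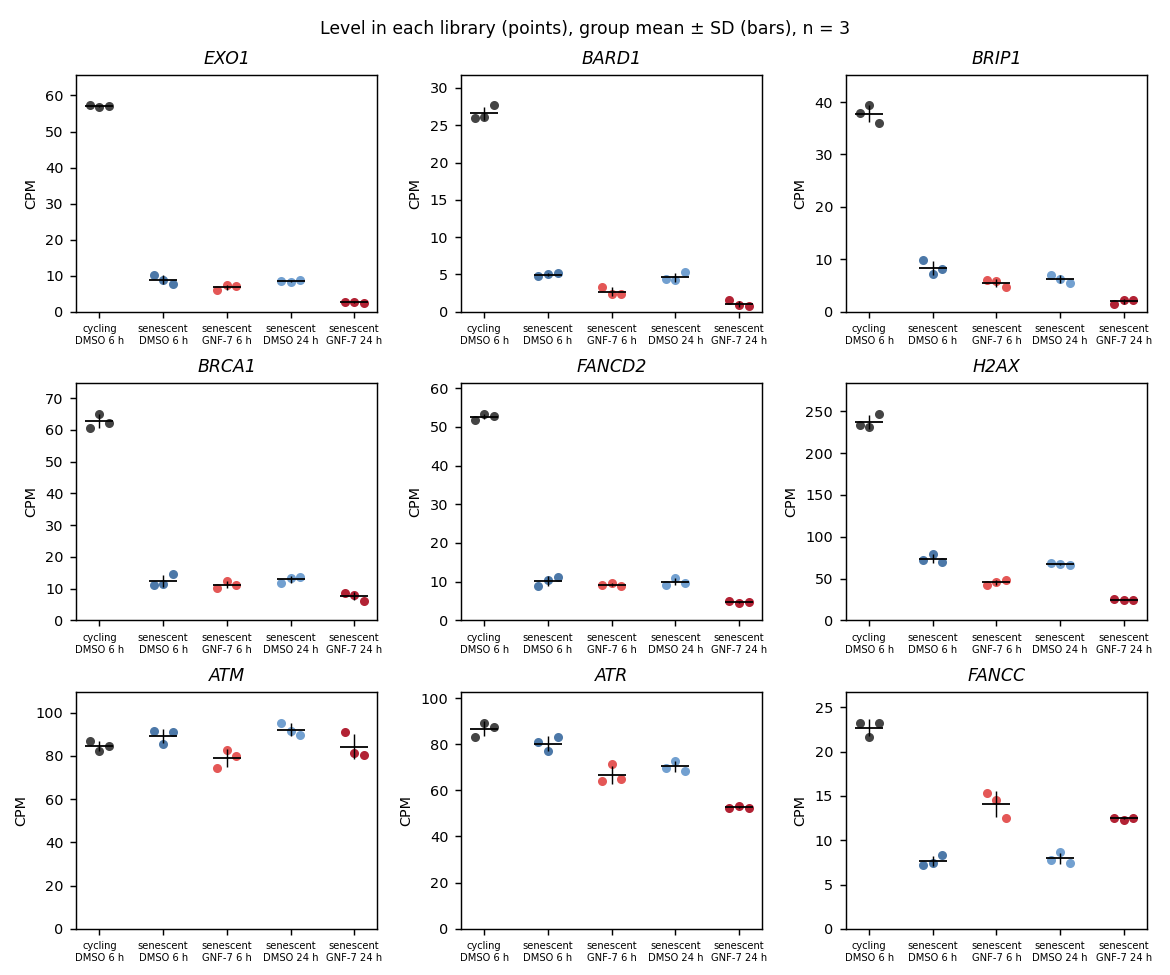
Level in CPM (vertical axis) of 9 genes in each of the 15 libraries, by group, with points for libraries and bars for the mean ± SD (n = 3). EXO1, BARD1, BRIP1, BRCA1, FANCD2 and H2AX were highest in cycling cells and lowest with GNF-7 at 24 h, ATM stayed between 74.6 and 95.5 CPM, and FANCC was higher with GNF-7 than in vehicle at both times.

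Vehicle alone was followed from 6 h to 24 h in senescent cells as a background for the GNF-7 comparisons. Of the 39 genes 7 were called lower and 0 higher (edgeR quasi-likelihood test), where 18.5% of all genes tested were called, 9.29% lower and 9.26% higher. The largest called fall was that of BRIP1, at 9.87, 7.20 and 8.12 CPM at 6 h and 6.99, 6.24 and 5.57 CPM at 24 h (-0.41, SE 0.120, edgeR adjusted p 0.00953). ATR, at 80.9, 76.8 and 83.0 CPM and then 69.5, 72.9 and 68.6 CPM, fell by 0.19 and kept its call in every fit that left out a library. FANCA was at 20.2, 21.5 and 17.1 CPM and then at 16.7, 17.0 and 16.2 CPM (-0.24), and PALB2 at 20.6, 20.6 and 20.2 CPM and then at 18.3, 17.1 and 16.9 CPM (-0.23). Neither gene overlapped between the times. RIF1 (-0.19), MDC1 (-0.18) and TOPBP1 (-0.15) were also called. H2AX was not called (71.9, 79.4 and 69.4 CPM, then 68.6, 67.2 and 66.6 CPM), but was called lower with a replicate block (-0.12, edgeR adjusted p 0.0454), with library totals (-0.24), with mitochondrial genes left out (-0.13), in a fit of these groups alone (-0.13) and on leaving out library 3 of vehicle at 6 h (-0.16) or library 1 (-0.12) or 2 (-0.13) of GNF-7 at 6 h.

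The vehicle calls depended on the scale and on single libraries. With library totals as the scale 15 of the 39 were called lower, but 87.5% of all called genes were then lower in place of 50.1%, and the median of all genes moved from 0.01 to -0.10. The count of 7 fell to 4 and 3 without library 1 and library 2 at 6 h, and to 4 and 2 without library 2 and library 3 at 24 h. BRIP1 lost its call without library 1 at 6 h (-0.28) or library 3 at 24 h (-0.34). FANCA lost it without any 1 library at 24 h (-0.25 to -0.22), library 1 (-0.22) or 2 (-0.17) at 6 h, cycling library 2 or 3 or the third 6 h GNF-7 library (-0.24 each), and with limma voom or the filter at 5 CPM (-0.23 each). PALB2 lost it without any 1 library at 6 h (-0.23 to -0.22) or library 2 or 3 at 24 h (-0.21 each). RIF1 lost it without library 3 at 24 h (-0.16). MDC1, whose libraries overlapped between the times, lost it without library 2 (-0.13) or 3 (-0.17) at 6 h or library 1 (-0.14) or 3 (-0.16) at 24 h. TOPBP1 lost it without library 2 (-0.14) or 3 (-0.11) at 6 h or library 2 (-0.13) or 3 (-0.14) at 24 h.

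The interaction asked whether the GNF-7 effect differed between 24 h and 6 h. It was called with a lower value at 24 h for 20 of the 39 genes and with a higher value for 1, where 30.8% of all genes tested were called, 18.0% lower and 12.8% higher. By at least 2-fold 7 were lower and 0 higher (edgeR quasi-likelihood test), against 2.06% and 2.93% of all genes. RAD51AP1 showed the largest difference, at -1.36 (SE 0.153, edgeR adjusted p 5.45e-11). Its GNF-7 libraries overlapped vehicle at 6 h and did not at 24 h. EXO1 (-1.32), XRCC2 (-1.26), BARD1 (-1.22), FANCB (-1.18), BRIP1 (-1.07), RAD54L (-1.02) and FANCI (-0.96) followed. The single gene with a higher value at 24 h was FANCL (0.50), named here after its value was seen, which was called lower at 6 h and higher at 24 h. Each of these 8 falls was also called under every alternative that was run.

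Per exon length, H2AX had the highest level of the 39 genes in cycling cells, in senescent vehicle cells at 6 h and with GNF-7 at 24 h. It was at 147 ± 5.25 RPKM (CPM divided by the exon length in kilobases) in cycling cells, 45.6 ± 3.23 RPKM in senescent vehicle cells at 6 h and 15.3 ± 0.564 RPKM with GNF-7 at 24 h. UBE2T followed in cycling cells at 32.6 ± 0.288 RPKM and TOPBP1 at 25.2 ± 0.702 RPKM, beyond their spread. Next came RAD51AP1 (17.6 ± 0.489 RPKM) and RBBP8 (17.2 ± 1.23 RPKM), which did not differ beyond theirs. With GNF-7 at 24 h the level after H2AX was shared by NBN, RBBP8, TP53BP1 and TOPBP1, between 6.12 and 6.57 RPKM, with SDs of 0.219 to 0.476 RPKM. The lowest were BLM at 0.302, BRIP1 at 0.245, FANCB at 0.211 and BARD1 at 0.178 RPKM. In cycling cells the lowest had been RAD50 and RAD51B, at 0.665 and 0.484 RPKM. The rank of RAD50 is uncertain, because 79.7% of its exon length is shared with AC116366.3 on the same strand.

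Set against their cycling means, the genes kept a median of 35.6% of their CPM in senescent vehicle cells at 6 h, 34.3% in vehicle at 24 h, 31.4% with GNF-7 at 6 h and 24.3% with GNF-7 at 24 h. No member was under 10% of its cycling mean in the first 3 of these groups, and 11 were with GNF-7 at 24 h. These were EXO1, BLM, BARD1, BRIP1, RAD51AP1, XRCC2, RAD54L, FANCA, FANCB, FANCD2 and UBE2T, with BARD1 lowest at 4.07%. By role, the summed CPM of FANCD2, FANCI and UBE2T was 22.3% of the cycling level in senescent vehicle cells at 6 h. It was 20.8% in vehicle at 24 h and 9.72% with GNF-7 at 24 h. The cycling markers were near this, at 24.0%, 21.8% and 11.1% in the same groups. In the same order the kinase group kept 59.8%, 57.0% and 45.7%, and the end resection group 37.3%, 35.0% and 33.0%.

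**Figure D3:**
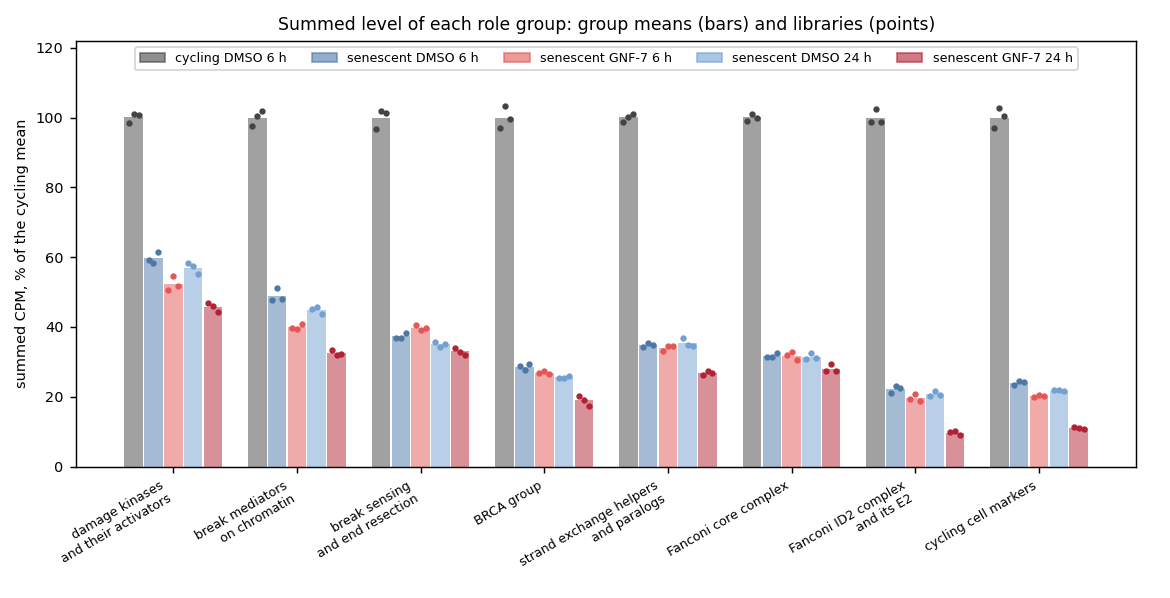
Summed CPM of each role group and of 10 cycling markers, as a percentage of the cycling mean (vertical axis), with bars for the group mean and points for the 3 libraries. The FANCD2 step falls lowest, to 9.72% with GNF-7 at 24 h, and the kinase group stays highest at 45.7%, while the resection group is slightly higher with GNF-7 than in vehicle at 6 h.

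The senescence comparison and the GNF-7 comparison at 24 h share no library, so their fold changes could be set side by side. Across the 39 genes Pearson's r was 0.726 and Spearman's rho 0.758, against 0.405 and 0.396 across all 18563 genes tested. Genes are not independent replicates, and no p is given. Of the 34 members called lower in senescence 26 (76.5%) were called lower again with GNF-7 at 24 h, which is 96.3% of the 27 lower there (60.1% over all genes), and 4 (11.8%) rose: RAD51D, PALB2, FANCC and FANCL. Over all genes 51.9% of those lower in senescence were lower again, and 18.5% rose. Among all 39 members, 69.2% were lower with GNF-7 at 24 h and 87.2% were lower in senescence. The 76.5% and 96.3% are thus not far above the members' own shares.

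**Figure D4:**
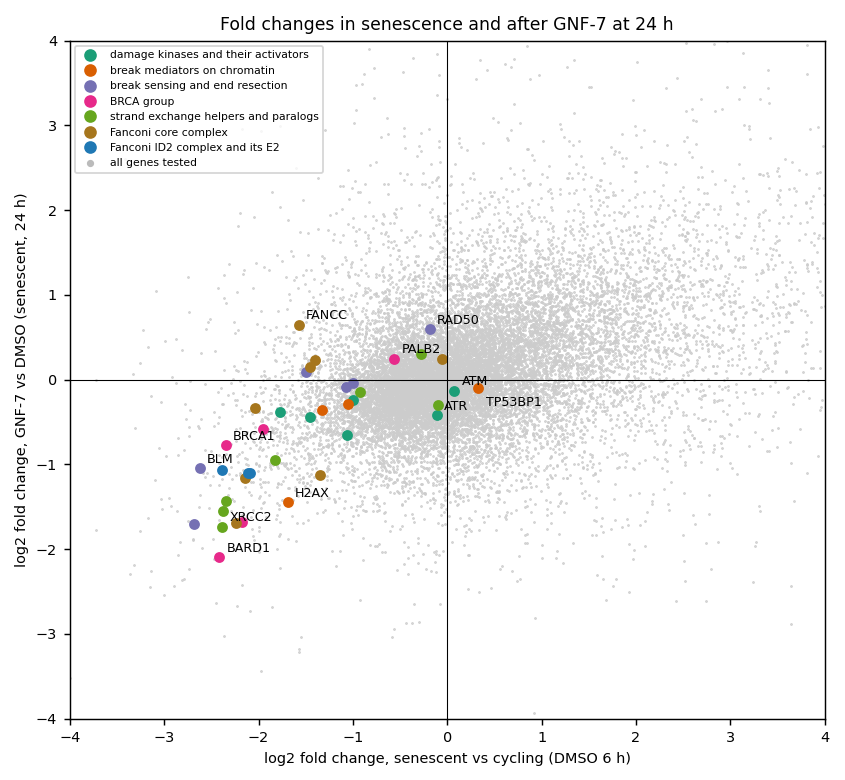
Log2 fold change in senescence (horizontal axis) against that with GNF-7 at 24 h (vertical axis) for the 39 genes, coloured by role, and for all genes tested (grey), of which 462 lie outside the axes. The members lie mostly at the lower left, with BARD1 at -2.42 and -2.10, and FANCC stands apart at -1.57 and 0.65.

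Other genes of the pathway were read from lists written for this purpose with earlier results of these data known. Of 48 further recombination and checkpoint genes 35 were called lower and 2 higher in senescence, with a median log2 fold change of -0.75, which is 72.9% and 4.17%, against 34.4% and 35.6% of all genes. CLSPN, an adaptor through which ATR reaches CHEK1, fell from 85.0 ± 1.84 to 11.8 ± 1.73 CPM (-2.85, SE 0.080), and RMI2, a partner of BLM, from 20.5 ± 1.91 to 3.70 ± 0.467 CPM (-2.47). With GNF-7 at 24 h 19 of the 48 were lower (39.6%) and 11 higher (22.9%), with a median of -0.09, against 29.7% and 29.3% of all genes. CLSPN fell by a further 2.07, from 10.2 ± 1.203 to 2.43 ± 0.345 CPM. Of 18 end joining genes 13 were lower (72.2%) and 5 higher (27.8%) in senescence, and 9 lower (50%) and 5 higher (27.8%) with GNF-7 at 24 h. PARP1, a sensor of breaks, fell by 1.61 in senescence. POLQ, the polymerase of an alternative joining route, fell by 1.60 in senescence and by 1.69 with GNF-7 at 24 h, to 5.69 ± 0.868 CPM. XRCC5, which encodes the Ku80 subunit that binds ends, fell by 0.85 with GNF-7 at 24 h and remained at 223 ± 6.41 CPM.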

How the data were processed

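The deposited table gives, for 15 libraries, whole-number read counts by Ensembl gene, with no normalization by the authors. Per the submitters' processing notes, the tools were bcl2fastq 2.20.0.422, STAR 2.7.9a and featureCounts 1.5.1, with the build GRCh38. The annotation release and the strand setting are not given in the sources used here. Libraries were grouped by title and matched to columns by library name. Of 60673 lines 3 were left out, because 1 entry (ANK2) was broken over them.

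Tests used the quasi-likelihood method of edgeR (4.0.16, R 4.3.3, robust) after filterByExpr (18563 genes kept) and TMM scaling, in 1 fit over all 15 libraries with a term per group. P-values were adjusted by Benjamini-Hochberg over all genes tested, with calls made at adjusted p under 0.05. CPM and RPKM use the TMM-scaled totals, and lengths and overlaps are of GENCODE release 29 exons. The SE is the size of the log2 fold change divided by the square root of F. The code was tested on simulated data. Pairs of libraries within a group differed by more than sampling noise. Same-numbered libraries of vehicle and GNF-7 at 24 h deviated together (r 0.110 to 0.154 across genes), as a pairing read from the data, and the blocked value is given where it changed a call. Members and lists were chosen with earlier results of these data known. Every member is named. Fold changes are printed for called members, and for GNF-7 at 6 h, the interaction and vehicle over time for the 8 largest. Values per library are given for the 3 largest rises and falls per comparison and for ATM, ATR, BRCA1, H2AX and FANCD2. Some members of the other gene lists that this rule would name are not reported here. The SE and SD include the spread between these libraries, while the remark on depth covers counting error only.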

Additional observations from a re-analysis of the deposited data

Results flagged for a closer look

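The effect of GNF-7 on senescent cells differed between 24 h and 6 h for the following genes, by the interaction term of the edgeR quasi-likelihood fit, and each stood lower at the later time on the log2 scale. The differences were -1.36 for RAD51AP1, -1.32 for EXO1, -1.26 for XRCC2, -1.22 for BARD1, -1.18 for FANCB, -1.07 for BRIP1, -1.02 for RAD54L and -0.96 for FANCI. BARD1, BRIP1, RAD54L, XRCC2 and EXO1 were called lower at both times, and RAD51AP1, FANCB and FANCI at 24 h. At 6 h RAD51AP1 had no call in any fit, FANCB was called lower only with the replicate block (-0.52) and in 6 leave-one-out fits (-0.66 to -0.52), and FANCI only without library 3 of vehicle at 6 h (-0.18).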

How the results depend on the processing

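The alternatives were RLE size factors, library totals, mitochondrial genes left out, genes kept without any filter or only at a mean CPM of 5 or more, DESeq2 (1.42.0), limma voom (3.58.1), a fit restricted to the compared groups, a replicate block and each library left out in turn. Of 2181 values of named members, 2119 kept their direction and call, 60 lost the call and 2 changed direction, namely ATR in senescence with library totals (0.0205) and with the filter at 5 CPM (0.0385). The members' median in senescence moved to -1.36 with library totals and to -1.34 with that filter. With either of these, and in the fit of only those groups, 2 members were called higher in senescence in place of 1. The cause was not tested. In vehicle over time 15 members were called lower with library totals, and 1 higher with the filter at 5 CPM and in the fit of only those groups. Leaving out each library in turn gave 4 to 8 members higher with GNF-7 at 6 h, and 2 to 8 lower and 0 to 1 higher in vehicle over time. With the replicate block 34 members were lower in senescence, 20 with GNF-7 at 6 h (FANCB and BRCA2 added), 28 at 24 h, 20 in the interaction and 8 in vehicle over time. In senescence, GNF-7 at 6 h and vehicle over time, same-numbered libraries of the groups compared did not all deviate together (r -0.088 to 0.184), while those of GNF-7 at 6 h and 24 h did (r 0.126 to 0.254), and the own number correlated best in 28 of 60 cases. The filter at 5 CPM kept 37 of the 39 members. Depth limited FANCB most, with 22 counts in its lowest library.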

Other observations

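Repair genes outside double-strand breaks were read as lists too, where 34.4% of all genes tested were lower and 35.6% higher in senescence, and 29.7% and 29.3% with GNF-7 at 24 h. Of 30 excision repair genes 19 were called lower (63.3%) and 7 higher (23.3%) in senescence, with a median log2 fold change of -0.34. With GNF-7 at 24 h 11 were lower (36.7%) and 8 higher (26.7%), near the shares of all genes, with a median of 0.03. FEN1, the flap nuclease that also works in replication, fell from 298 ± 7.70 to 60.7 ± 1.19 CPM in senescence (-2.29) and by a further 1.56 with GNF-7 at 24 h. UNG, which removes uracil from DNA, fell by 2.18 in senescence. NEIL1, a glycosylase at under 1 CPM in vehicle, rose by 1.70 with GNF-7 at 24 h to 2.17 ± 0.727 CPM. Of 7 mismatch repair genes 5 were lower (71.4%) and 0 higher in senescence, with a median of -0.84, and 3 lower and 3 higher with GNF-7 at 24 h (edgeR quasi-likelihood test). MSH6, a subunit of a mismatch sensor, fell by 1.78 in senescence and by a further 0.66 with GNF-7 at 24 h, when PMS2 rose by 0.40.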
